A study of Mus musculus with 18 samples.

Results

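The 8 genes described here are regulators, receptors and surface proteins that are widely used to define the luminal lineage of the mammary gland. They were taken by name (Kit, Elf5, Ehf, Elf3, Tnfrsf11a, Epcam, Prom1 and Cited1), and all 8 of 8 were found among the 24376 genes of a table of RNA-seq counts. RNA was taken from mouse embryos, from the epithelium of mammary buds 1 to 3 after enzymes and hand dissection had freed it of its surroundings. Stabilized embryos (Krt14Cre/wt; Ctnnb1 flox3/wt) carried 1 allele of the β-catenin gene Ctnnb1 from which Cre removes exon 3, so that the protein made from it escapes destruction and keeps Wnt target transcription on. Controls (Krt14wt/wt; Ctnnb1 flox3/wt) were littermates with the same unrecombined allele and no Cre. There were 4 stabilized and 4 control libraries at embryonic stage E13.5, where both sexes were used, and 5 stabilized and 5 control libraries at E16.5, where females were used, all on a mix of C57Bl/6 and NMRI. Stage and sex makeup therefore cannot be told apart, and neither can Cre itself and the stabilized allele. Cre was driven by the Krt14 promoter, which is active in epidermis as well as in mammary epithelium, and each library pooled 2 to 3 embryos of 1 litter. The litter of each library is not known here, so p-values measure the spread between pools that may share a litter.

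The adult mammary epithelium has an inner luminal layer, which holds the hormone-sensing cells and the progenitors of milk-secreting cells, and an outer basal layer. Kit and RANK (the product of Tnfrsf11a) are receptors that luminal progenitors and hormone-sensing cells use to receive growth signals, Elf5, Ehf and Elf3 are epithelial ETS transcription factors, and Epcam and Prom1 are membrane proteins by which luminal cells are sorted. In the embryo the bud is a small invaginated ball of epithelium that later sprouts and branches, and its cells are not yet divided into these adult layers.

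Of the 8 genes, 7 passed the filter on low counts and were tested, and Cited1 did not pass. At E16.5, Kit, Tnfrsf11a, Epcam and Prom1 fell in stabilized epithelium and Elf3 rose. At E13.5, Kit and Elf3 fell and Ehf rose. Kit was the member that fell at both stages. Over the 17269 genes tested, 9.58% rose and 5.29% fell at E13.5, and 22.2% rose and 19.4% fell at E16.5. The median log2 fold change over all genes was 0.01 at E13.5 and 0.10 at E16.5. Counts and medians of the gene lists below are to be read beside these values. Levels are given in CPM, the count relative to the TMM-scaled library total. CPM values carry SD (n = 4 at E13.5, n = 5 at E16.5), log2 fold changes (stabilized over control unless said otherwise) carry SE, and p-values are edgeR adjusted p over the 17269 genes tested, with a threshold of 0.05.

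**Figure D1:**
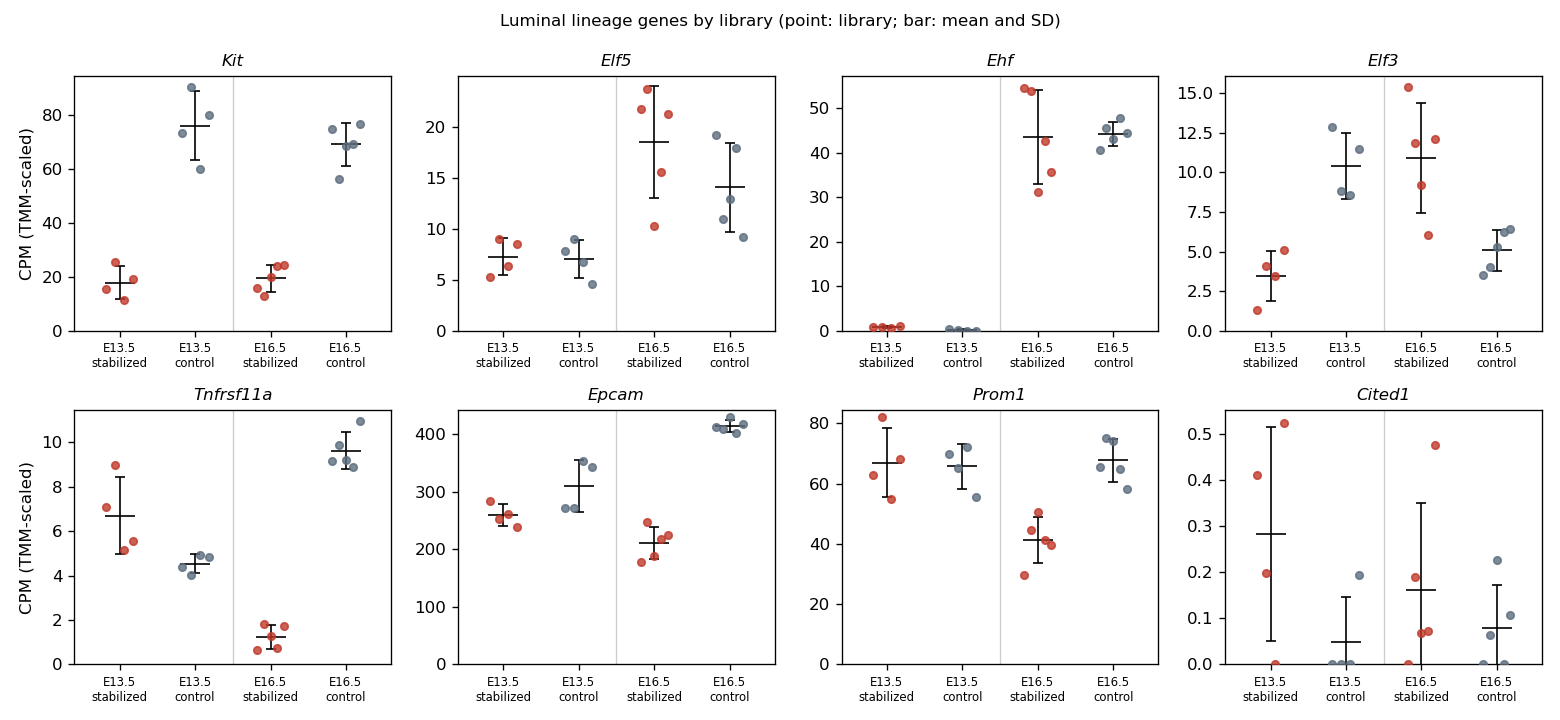
CPM of each of the 8 genes (y axis, a scale of its own in each panel, starting at 0) in every library, with stabilized libraries in red and controls in grey at E13.5 and E16.5; black bars give the mean and SD. Kit is lower in all stabilized libraries at both stages, Tnfrsf11a, Epcam and Prom1 are lower in all 5 stabilized libraries at E16.5, and Ehf is near 0 at E13.5 and between 31.1 and 54.5 CPM in stabilized libraries at E16.5.

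Promoters are shown for the 4 genes that fell together at E16.5 and for the Elf5 start with the 1 match to a TCF/LEF type motif, the kind of site through which β-catenin acts. Sequences run 5′ to 3′ on the gene's strand, from 250 bases before to 50 bases after the start (RefSeq, GRCm38.p6). Capitals mark exact matches on either strand to CTTTGAT (TCF/LEF type) or AGGAAG (ETS type).
Kit, chr5:75574737-75575036, plus strand: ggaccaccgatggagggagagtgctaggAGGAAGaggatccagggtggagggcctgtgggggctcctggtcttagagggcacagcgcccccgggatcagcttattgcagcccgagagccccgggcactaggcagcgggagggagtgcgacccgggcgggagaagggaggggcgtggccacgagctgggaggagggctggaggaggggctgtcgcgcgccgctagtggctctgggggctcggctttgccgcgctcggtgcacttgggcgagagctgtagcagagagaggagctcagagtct
Tnfrsf11a, chr1:105780473-105780772, plus strand: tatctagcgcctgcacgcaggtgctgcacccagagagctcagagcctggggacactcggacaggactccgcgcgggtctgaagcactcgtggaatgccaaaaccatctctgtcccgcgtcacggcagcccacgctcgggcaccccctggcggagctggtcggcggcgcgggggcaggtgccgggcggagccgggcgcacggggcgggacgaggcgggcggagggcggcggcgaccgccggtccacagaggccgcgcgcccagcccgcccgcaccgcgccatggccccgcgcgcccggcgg
Epcam, chr17:87635729-87636028, plus strand: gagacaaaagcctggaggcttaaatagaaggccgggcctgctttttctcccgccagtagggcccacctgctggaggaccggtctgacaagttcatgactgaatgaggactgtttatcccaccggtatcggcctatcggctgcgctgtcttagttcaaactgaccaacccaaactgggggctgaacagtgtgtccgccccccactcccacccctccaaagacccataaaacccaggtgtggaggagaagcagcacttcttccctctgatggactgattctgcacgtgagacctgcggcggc
Prom1, chr5:44101687-44101986, minus strand: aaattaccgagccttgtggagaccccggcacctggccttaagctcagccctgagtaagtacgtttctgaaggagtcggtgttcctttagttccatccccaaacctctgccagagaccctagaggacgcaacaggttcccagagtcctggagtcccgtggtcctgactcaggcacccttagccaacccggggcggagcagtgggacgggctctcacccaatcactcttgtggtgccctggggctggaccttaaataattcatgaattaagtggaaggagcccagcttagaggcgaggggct
Elf5, the second of 2 starts, chr2:103423818-103424117, plus strand: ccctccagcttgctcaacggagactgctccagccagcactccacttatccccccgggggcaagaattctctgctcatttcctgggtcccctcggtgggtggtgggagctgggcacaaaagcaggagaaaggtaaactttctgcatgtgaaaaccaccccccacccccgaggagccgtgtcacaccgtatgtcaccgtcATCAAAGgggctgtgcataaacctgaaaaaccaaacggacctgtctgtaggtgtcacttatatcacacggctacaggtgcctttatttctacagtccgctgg
The promoter table held entries for 7 of the 8 genes, Ehf not among them, with 12 starts in all. CTTTGAT was found in 1 of these 12 promoters, against 3.73% of the 32851 promoters in the table. AGGAAG was found in 5 of the 12 (in both Kit starts, which overlap, in the second Prom1 start and in 2 Cited1 starts), against 35.4% of all promoters. The 2 motifs do not overlap each other. In the printed windows the Kit match lies 222 bases before the start and the Elf5 match 52 bases before it, on the minus strand. These are matches of letters, not binding data. Among the 5 printed windows GC content ran from 55.3% in this Elf5 promoter to 76.7% in that of Tnfrsf11a.

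Levels relative to gene length put Epcam first in each of the 4 groups. In CPM per kb of exon it averaged 118 ± 8.74 in E13.5 stabilized and 141 ± 20.4 in E13.5 control libraries, and 96.5 ± 12.7 in E16.5 stabilized and 189 ± 4.78 in E16.5 control libraries. No other member's libraries overlapped those of Epcam. In E13.5 controls Prom1 (9.15 CPM per kb) and Kit (8.52 CPM per kb) overlapped as the next genes. Then came Elf3 (4.70 CPM per kb), and after it Elf5 (1.20 CPM per kb) and Tnfrsf11a (0.759 CPM per kb), which overlapped.

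The order differed with genotype and stage. In E13.5 stabilized buds Kit (2.00 CPM per kb) stood well under Prom1 (9.33 CPM per kb), and Kit, Elf3, Elf5 and Tnfrsf11a (1.12 CPM per kb) each overlapped their neighbour. By E16.5, Ehf had moved up to 7.81 CPM per kb in stabilized epithelium and 7.94 CPM per kb in controls. There it overlapped Prom1 in each genotype, with Prom1 at 5.74 CPM per kb in stabilized epithelium and 9.43 CPM per kb in controls. Kit had 2.18 CPM per kb in E16.5 stabilized epithelium, where its libraries overlapped those of Elf3 and Elf5, and 7.74 CPM per kb in E16.5 controls, where it stood above both without overlap. Tnfrsf11a came next to last in both, at 0.208 CPM per kb in stabilized epithelium and 1.61 CPM per kb in controls. Cited1 was last by its mean and overlapped Tnfrsf11a in stabilized epithelium but not in controls.

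**Figure D2:**
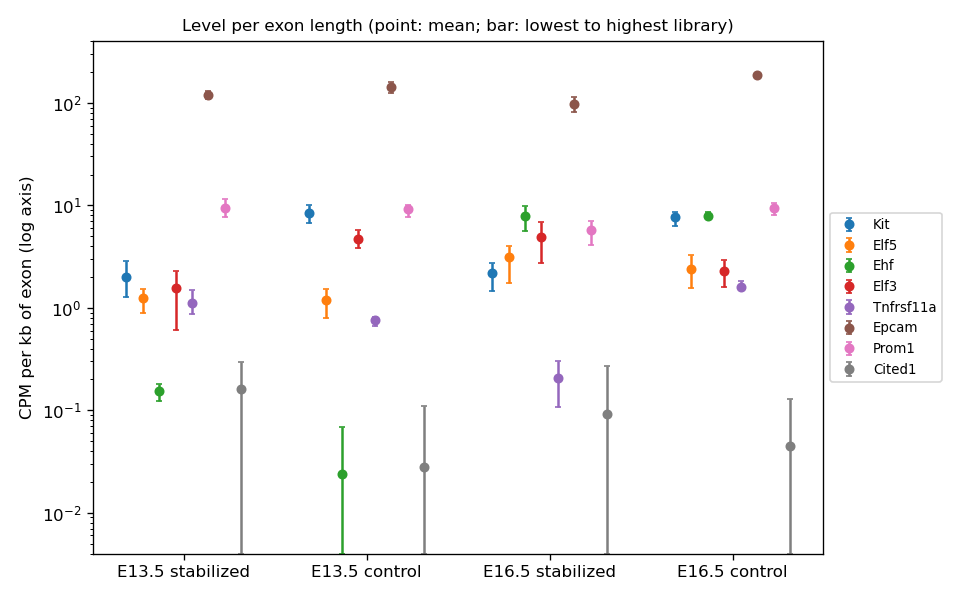
Mean CPM per kb of exon (y axis, log scale) of the 8 genes in the 4 groups, with bars from the lowest to the highest library; bars that reach the lower edge include libraries at 0. Epcam stands alone at the top in each group, and Ehf lies near Cited1 at E13.5 but near Prom1 at E16.5.

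Among the ETS factors, Elf5 drives the alveolar programme of luminal progenitors in the mouse. Elf5 (ENSMUSG00000027186, GRCm38/mm10 chromosome 2, 103411688 to 103450989) had 5.23, 8.96, 6.38 and 8.54 CPM in E13.5 stabilized libraries, against 7.84, 8.95, 6.72 and 4.63 CPM in E13.5 controls. At E16.5 it had 21.7, 23.6, 10.3, 15.6 and 21.3 CPM in stabilized libraries, against 19.2, 11.0, 12.9, 17.9 and 9.21 CPM in controls. The genotypes overlapped at both stages, while all E16.5 libraries lay above all E13.5 libraries. The log2 fold change was 0.05 ± 0.30 at E13.5 (edgeR adjusted p = 0.967) and 0.40 ± 0.26 at E16.5 (edgeR adjusted p = 0.244), neither past the threshold. An interval of 2 SE ran from -0.54 to 0.64 at E13.5 and from -0.13 to 0.92 at E16.5. From E13.5 to E16.5 Elf5 rose by a log2 value of 1.35 ± 0.29 in stabilized epithelium (edgeR adjusted p = 0.00155) and by 1.00 ± 0.29 in controls (edgeR adjusted p = 0.00751). The difference between these stage effects was 0.35 ± 0.40 (edgeR adjusted p = 0.550).

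Ehf, an epithelial ETS repressor and activator, is the neighbour of Elf5 (ENSMUSG00000012350, chromosome 2, 103263433 to 103303278, minus strand). The pair points in opposite directions, 108409 bases apart, with 3 annotated genes and 0 protein-coding genes between. At E13.5, Ehf had 25, 27, 20 and 31 counts in stabilized libraries (0.855, 0.896, 0.693 and 1.01 CPM), against 13, 5, 0 and 0 counts in controls (0.385, 0.149, 0 and 0 CPM). All stabilized libraries were above all controls, on small counts. Ehf rose by 2.61 ± 0.53 log2 units (edgeR adjusted p = 0.00183). Fitted to the E13.5 libraries alone, the rise was 2.65 but did not pass (edgeR adjusted p = 0.319), and it was 3.94 without E13.5 control replicate 1, the control with most Ehf counts.

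By E16.5, Ehf had 54.5, 53.8, 31.1, 42.7 and 35.7 CPM in stabilized libraries, against 40.6, 45.4, 43.0, 47.7 and 44.4 CPM in controls. The stabilized libraries spread to both sides of the controls, and the log2 fold change of -0.02 ± 0.31 did not pass (edgeR adjusted p = 0.963). The stage rise in log2 units was 5.65 ± 0.44 in stabilized epithelium (edgeR adjusted p = 3.52e-08) and 8.28 ± 0.52 in controls (edgeR adjusted p = 5.44e-10). Without E13.5 control replicate 1 the control rise was 9.61. The genotype effect was smaller at E16.5 than at E13.5 by 2.63 ± 0.62 log2 units (edgeR adjusted p = 0.00288), and by 3.96 without that control library.

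Elf3, an ETS factor of differentiating epithelia, changed in opposite directions at the 2 stages. Elf3 (ENSMUSG00000003051, chromosome 1, 135253575 to 135258568) had 1.33, 4.08, 3.46 and 5.07 CPM in E13.5 stabilized libraries, against 12.8, 8.83, 8.56 and 11.5 CPM in E13.5 controls. At E16.5 the stabilized libraries had 15.4, 11.8, 9.20, 6.03 and 12.1 CPM, against 3.50, 4.04, 5.26, 6.23 and 6.43 CPM in controls. Stabilized libraries were all below controls at E13.5. At E16.5, 4 of 5 were above every control and replicate 4 lay among them. Elf3 fell by 1.58 ± 0.37 at E13.5 (edgeR adjusted p = 0.00508), rose by 1.10 ± 0.32 at E16.5 (edgeR adjusted p = 0.00979), and the difference of 2.68 ± 0.49 passed as well (edgeR adjusted p = 0.000297). With time it rose by 1.64 ± 0.35 in stabilized epithelium (edgeR adjusted p = 0.00160) and fell by 1.03 ± 0.34 in controls (edgeR adjusted p = 0.0168).

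With the factors of the deposited normalized table as offsets, which differ by gene as well as by library and whose making is not stated in the sources used here, Elf3 was -1.09 at E13.5 (edgeR adjusted p = 0.176), 1.01 at E16.5 (edgeR adjusted p = 0.0773), 1.08 across stages in stabilized epithelium (edgeR adjusted p = 0.107) and -1.03 across stages in controls (edgeR adjusted p = 0.0753). None of these 4 passed, while their directions were as before. Elf3 also shares exon sequence with Gm26642 on the opposite strand, and the strand setting of the counts is not given in the sources used here. The epidermal differentiation markers moved with Elf3 at E16.5: all 14 of 14 rose in stabilized epithelium, and their summed level was 2400 to 23484 CPM in stabilized libraries and 118 to 295 CPM in controls. The highest Elf3 value and the highest marker sum were both those of stabilized replicate 1. Among the other stabilized libraries the orders differed. Replicate 5 had the lowest sum (2400 CPM) with Elf3 at 12.1 CPM, and replicate 3 had 3233 CPM with Elf3 at 9.20 CPM. At E13.5, 6 of 14 of these markers rose (91.4 to 163 CPM in stabilized, 49.3 to 69.9 CPM in control libraries) while Elf3 fell. The part of the epidermal cells in the Elf3 result was not tested. Fewer cells of a type and less RNA per cell cannot be told apart in such bulk samples, for any gene here.

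Of 23 other ETS factors, 21 were tested. At E13.5, 4 rose and 3 fell, and at E16.5, 4 rose and 6 fell. Their median log2 fold change was -0.05 at E13.5, against 0.01 over all genes, and -0.17 at E16.5, against 0.10 over all genes. Ets1, a factor of branching epithelia and endothelium, had 27.3 ± 6.48 CPM in E13.5 stabilized and 0.480 ± 0.310 CPM in E13.5 control libraries. At E16.5 Ets1 had 13.3 ± 3.74 CPM in stabilized and 216 ± 6.96 CPM in control libraries, so it rose at the first stage and fell at the second. Etv6 rose by 0.77 ± 0.11 at E13.5 and fell by 1.72 ± 0.10 at E16.5, and Etv5, a target of Fgf signalling, rose by 1.17 ± 0.16 and fell by 1.73 ± 0.14. Ets2 rose at both stages, by 0.51 ± 0.16 and 1.49 ± 0.15.

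Kit is the receptor tyrosine kinase for stem cell factor, and in the adult gland it marks luminal progenitors. Kit (ENSMUSG00000005672, chromosome 5, 75574916 to 75656722) had 15.5, 25.5, 11.3 and 19.0 CPM in E13.5 stabilized libraries, against 73.2, 90.4, 60.1 and 80.0 CPM in E13.5 controls. At E16.5 the values were 15.7, 12.9, 20.1, 24.0 and 24.5 CPM in stabilized libraries, against 74.7, 56.2, 68.3, 69.3 and 76.6 CPM in controls. At each stage every stabilized library lay far below the lowest control. Kit fell by 2.09 ± 0.23 at E13.5 (4.26-fold, edgeR adjusted p = 2.66e-06) and by 1.83 ± 0.21 at E16.5 (3.55-fold, edgeR adjusted p = 7.08e-07). The effects at E16.5 and E13.5 differed by 0.26 ± 0.30, which did not pass (edgeR adjusted p = 0.555). The stage effect was 0.13 ± 0.21 in stabilized epithelium (edgeR adjusted p = 0.727) and -0.14 ± 0.21 in controls (edgeR adjusted p = 0.625).

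Kit is also expressed by mast cells and melanocytes, so their markers are given beside it. The 5 mast cell proteases Cma1, Mcpt4, Tpsb2, Tpsab1 and Cpa3 were set apart after the values were seen. They were at 0 counts in every E13.5 library of either genotype. The whole mast cell list, 7 genes in the table, summed to 2.09 to 7.55 CPM in E13.5 stabilized and 0 to 0.476 CPM in E13.5 control libraries, and 1 of its 6 tested genes, Hdc, rose. At E16.5 the proteases summed to 2.49 to 16.3 CPM in stabilized and 12.4 to 102 CPM in control libraries. The whole list summed to 12.6 to 47.0 CPM in E16.5 stabilized and 14.8 to 109 CPM in E16.5 control libraries, and of its 6 tested genes 4 fell and Hdc, which makes histamine, rose. Cma1 had 1.75 ± 1.30 CPM in E16.5 stabilized and 14.5 ± 9.85 CPM in E16.5 control libraries.

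The 9 melanocyte markers summed to less in stabilized epithelium, with 38.2 to 60.9 CPM against 95.9 to 107 CPM in controls at E13.5. At E16.5 the sums were 183 to 297 CPM in stabilized and 610 to 793 CPM in control libraries. In controls most of these sums came from a pair of genes that other cells also use. Ednrb, the endothelin receptor, had 19.3 ± 3.64 CPM in E13.5 stabilized and 76.4 ± 5.20 CPM in E13.5 control libraries. Sox10 had 29.6 ± 19.9 CPM in E16.5 stabilized and 554 ± 59.0 CPM in E16.5 control libraries. Taken gene by gene, 1 of the 9 markers rose and 2 fell at E13.5, with a median log2 fold change of 1.11. At E16.5, 3 rose and 1 fell, with a median of 0.44, so most markers did not follow the sums. The 6 pigment genes Dct, Pmel, Tyrp1, Tyr, Mlana and Slc45a2, set apart after the values were seen, summed to 11.2 to 22.8 CPM in stabilized and 10.7 to 16.7 CPM in control libraries at E13.5. At E16.5 they summed to 104 to 197 CPM in stabilized and 75.9 to 143 CPM in control libraries. The part of mast cells and melanocytes in the Kit result was not tested.

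Kitl, the gene of stem cell factor, followed Kit at the later stage. At E16.5, Kitl had 24.0, 35.1, 39.5, 52.9 and 50.7 CPM in stabilized libraries, against 191, 215, 190, 179 and 196 CPM in controls, and it fell by 2.26 ± 0.20 (edgeR adjusted p = 2.13e-08). At E13.5, Kitl had 114, 100, 129 and 178 CPM in stabilized libraries, against 104, 117, 132 and 83.9 CPM in controls. The groups overlapped then, and the log2 fold change of 0.25 ± 0.21 did not pass (edgeR adjusted p = 0.510). The difference between stages, 2.52 ± 0.28 lower at E16.5, passed (edgeR adjusted p = 1.60e-06). Across stages Kitl fell by 1.69 ± 0.20 in stabilized epithelium (edgeR adjusted p = 3.51e-06) and rose by 0.83 ± 0.20 in controls (edgeR adjusted p = 0.00212).

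Of 17 genes for the Kit ligand and signalling, 1 rose and 3 fell at E13.5, and 2 rose and 6 fell at E16.5. The median was 0.01 at E13.5 and -0.27 at E16.5, against 0.01 and 0.10 over all genes. Pik3r1, a regulatory subunit of PI3 kinase, rose by 2.09 ± 0.18 at E16.5. Shc1, an adaptor that binds activated receptors, fell by 1.01 ± 0.14 at E16.5. Spred1, an inhibitor of the Ras pathway, rose by 0.65 ± 0.15 at E13.5 and fell by 0.87 ± 0.13 at E16.5.

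Tnfrsf11a encodes RANK, the receptor by which luminal cells respond to RANK ligand. Tnfrsf11a (ENSMUSG00000026321, chromosome 1, 105780718 to 105847981) had 7.08, 8.99, 5.16 and 5.56 CPM in E13.5 stabilized libraries, against 4.41, 4.02, 4.92 and 4.82 CPM in E13.5 controls. At E16.5 it had 0.651, 1.83, 1.26, 0.750 and 1.73 CPM in stabilized libraries, against 9.16, 9.89, 9.21, 8.88 and 11.0 CPM in controls. The genotypes did not overlap at either stage, with stabilized libraries above controls at E13.5 and below them at E16.5. At E13.5 the log2 fold change of 0.56 ± 0.33 did not pass (edgeR adjusted p = 0.303), and with the deposited factors as offsets it was -0.39. At E16.5 Tnfrsf11a fell by 2.94 ± 0.32 (7.69-fold, edgeR adjusted p = 3.56e-07). The effect at E16.5 was lower than at E13.5 by 3.50 ± 0.45 (edgeR adjusted p = 7.50e-06).

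Over time Tnfrsf11a moved apart in the genotypes. It fell by 2.42 ± 0.32 in stabilized epithelium (edgeR adjusted p = 1.29e-05) and rose by 1.08 ± 0.32 in controls (edgeR adjusted p = 0.00831). The control rise was 0.40 with the deposited factors as offsets and no longer passed (edgeR adjusted p = 0.492). Those factors, relative to the library's median gene, ran from 0.343 to 1.30 for Tnfrsf11a in E13.5 controls. Macrophages and osteoclast precursors also carry RANK. Of 10 myeloid markers, edgeR called 0 at either stage, with an unadjusted p under 0.05 for 2 at E13.5 and 4 at E16.5, and DESeq2 called 0 and 3. Their sum was 12.6 to 20.9 CPM in E16.5 stabilized and 24.5 to 31.8 CPM in E16.5 control libraries. Csf1r, the receptor of macrophage growth factor, was named after its values were seen and, like the rest of the list, was not called by edgeR. It had 2.00 ± 0.167 CPM in E16.5 stabilized and 6.33 ± 1.09 CPM in E16.5 control libraries. The part of myeloid cells in the Tnfrsf11a result was not tested.

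The ligand gene Tnfsf11 was barely present. It had 5, 0, 0 and 0 counts in E13.5 stabilized libraries and 0, 0, 60 and 0 counts in E13.5 controls. At E16.5 it had 8, 15, 9, 2 and 0 counts in stabilized libraries and 11, 5, 11, 19 and 20 counts in controls. No difference in Tnfsf11 was detectable at this depth (edgeR adjusted p = 0.275 at E13.5 and 0.661 at E16.5). Tnfrsf11b encodes osteoprotegerin, the soluble decoy that binds RANK ligand. Tnfrsf11b had 6.01, 12.9, 9.50, 12.0 and 4.79 CPM in E16.5 stabilized libraries, against 0.584, 1.68, 0.376, 1.11 and 1.14 CPM in controls, and rose by 3.20 ± 0.65 (edgeR adjusted p = 0.000522). At E13.5 its groups overlapped, with 2.00 ± 1.29 CPM in stabilized and 0.862 ± 0.733 CPM in control libraries (edgeR adjusted p = 0.286).

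**Figure D3:**
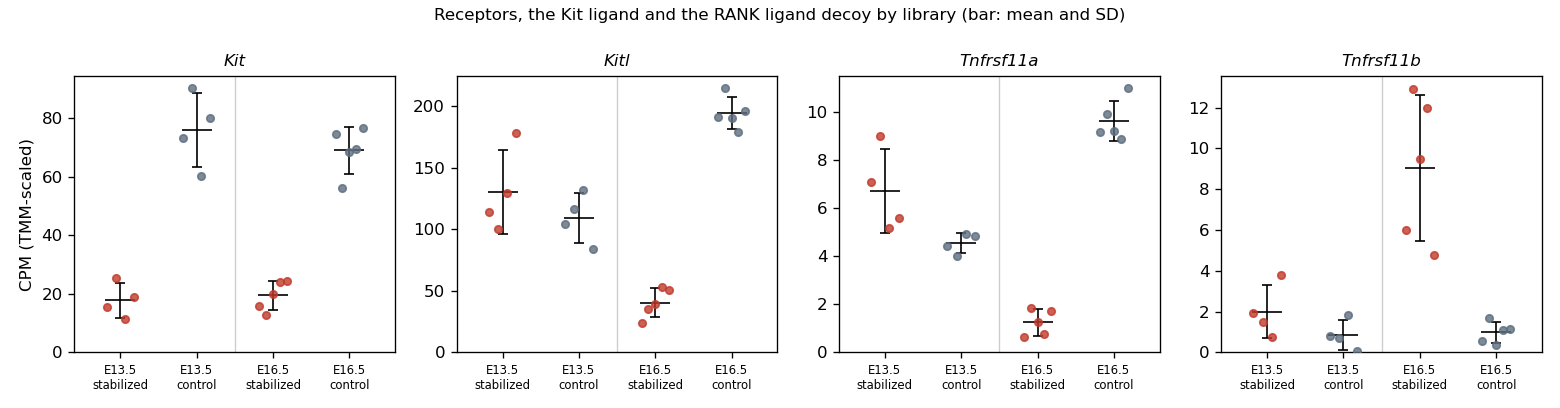
CPM of the receptors Kit and Tnfrsf11a, of the Kit ligand gene Kitl and of the decoy receptor gene Tnfrsf11b (y axes, each from 0) by library, stabilized in red and control in grey; bars give mean and SD. At E16.5 Kit, Kitl and Tnfrsf11a are lower in all 5 stabilized libraries and Tnfrsf11b is higher in all 5, while at E13.5 only Kit and Tnfrsf11a are free of overlap among these 4 genes.

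Of 13 genes for the RANK ligand, its decoy and signalling, 1 rose and 4 fell at E13.5, and 3 rose and 4 fell at E16.5. Their median was -0.24 at E13.5 and -0.23 at E16.5, against 0.01 and 0.10 over all genes. Nfatc1, a transcription factor downstream of RANK in osteoclasts, had 52.9 ± 16.0 CPM in E13.5 stabilized and 1.10 ± 1.14 CPM in E13.5 control libraries. At E16.5 Nfatc1 had 112 ± 18.1 CPM in stabilized and 7.09 ± 1.28 CPM in control libraries, a rise at both stages. The NF-κB subunits of the alternative pathway fell: Relb by 1.98 ± 0.34 at E13.5 and 1.47 ± 0.30 at E16.5, and Nfkb2 by 0.83 ± 0.23 and 1.32 ± 0.21. Traf2, an adaptor of TNF receptors, fell by 0.78 ± 0.13 at E16.5.

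Epcam encodes an epithelial adhesion protein. Epcam (ENSMUSG00000045394, chromosome 17, 87635979 to 87651129) had 284, 253, 262 and 239 CPM in E13.5 stabilized libraries, against 271, 272, 354 and 344 CPM in E13.5 controls. At E16.5 it had 179, 248, 189, 218 and 225 CPM in stabilized libraries, against 413, 409, 431, 403 and 418 CPM in controls. Groups overlapped at E13.5 and stood far apart at E16.5. The log2 fold change of -0.26 ± 0.12 at E13.5 did not pass (edgeR adjusted p = 0.181), and at E16.5 Epcam fell by 0.97 ± 0.11 (1.96-fold, edgeR adjusted p = 6.71e-07). The effects differed by -0.71 ± 0.16 (edgeR adjusted p = 0.00215). In controls Epcam rose by 0.42 ± 0.12 from E13.5 to E16.5 (edgeR adjusted p = 0.00575). In stabilized epithelium its stage effect of -0.29 ± 0.11 was close to the threshold (edgeR adjusted p = 0.0620).

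Prom1 encodes prominin-1, or CD133, a protein of membrane protrusions that in the mouse gland marks hormone-sensing luminal cells. Prom1 (ENSMUSG00000029086, chromosome 5, 43993620 to 44102032) had 63.0, 81.9, 54.8 and 68.1 CPM in E13.5 stabilized libraries, against 69.8, 65.1, 72.3 and 55.6 CPM in E13.5 controls. At E16.5 it had 29.7, 44.5, 50.7, 41.4 and 39.6 CPM in stabilized libraries, against 65.6, 75.3, 74.2, 64.9 and 58.3 CPM in controls. Here too the groups overlapped at E13.5 and were separate at E16.5. Prom1 was 0.03 ± 0.16 at E13.5 (edgeR adjusted p = 0.963) and fell by 0.72 ± 0.14 at E16.5 (1.64-fold, edgeR adjusted p = 0.000344). The difference was -0.74 ± 0.21 (edgeR adjusted p = 0.00967). It fell by 0.70 ± 0.15 with stage in stabilized epithelium (edgeR adjusted p = 0.00127) and was 0.04 ± 0.15 in controls (edgeR adjusted p = 0.841).

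With the deposited factors as offsets, the difference for Prom1 between stages was -0.19 (edgeR adjusted p = 0.720), and the stage effect in controls became -0.61 and passed (edgeR adjusted p = 0.0289). The factors for Prom1 averaged 1.18 ± 0.104 in E16.5 controls and 0.790 ± 0.171 in E13.5 controls, while those of Epcam lay between 0.929 and 1.05 in all libraries. Prom1 shares exon sequence with Gm16401 on the opposite strand.

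Prom2, the paralog of Prom1, went the other way at E16.5. Prom2 had 138, 93.7, 95.4, 59.8 and 132 CPM in E16.5 stabilized libraries, against 8.70, 7.11, 7.25, 8.71 and 9.50 CPM in controls, and rose by 3.65 ± 0.24 (edgeR adjusted p = 4.51e-10). The lowest stabilized library was above the highest control. At E13.5, Prom2 had 27.9, 18.4, 37.2 and 29.3 CPM in stabilized libraries, against 13.6, 21.4, 12.8 and 16.2 CPM in controls. Replicate 2 of the stabilized group lay among the controls then, and Prom2 rose by 0.82 ± 0.24 (edgeR adjusted p = 0.0259). The effect was larger at E16.5 than at E13.5 by 2.84 ± 0.33 (edgeR adjusted p = 2.14e-06).

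**Figure D4:**
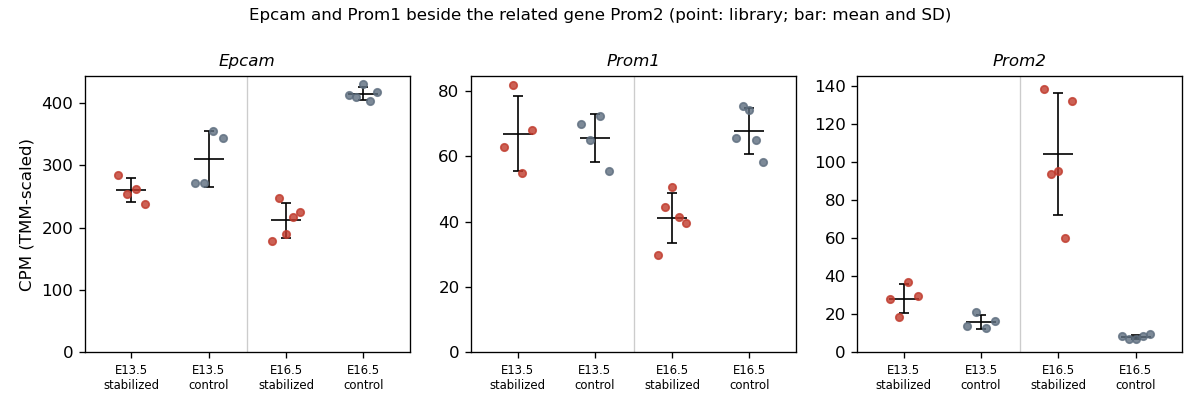
CPM of Epcam, Prom1 and its paralog Prom2 (y axes, each from 0) by library, stabilized in red and control in grey, with mean and SD. At E16.5 Epcam and Prom1 are lower in every stabilized library than in any control, and Prom2 is higher in every stabilized library, between 59.8 and 138 CPM.

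Across 10 relatives and partners of Epcam and Prom1, 3 rose and 1 fell at E13.5, and 7 rose and 3 fell at E16.5, with medians of 0.25 and 0.74. Cldn7, the claudin that binds Epcam, fell by 2.20 ± 0.20 at E16.5, whereas Cldn1, a claudin of stratified epithelium, rose by 3.06 ± 0.22. St14, the protease matriptase, rose by 1.61 ± 0.19 at E13.5 and 1.54 ± 0.17 at E16.5. The epithelial adhesion gene Cdh1 was named after its values were seen. Cdh1 had 613 ± 148 CPM in E16.5 stabilized and 349 ± 32.9 CPM in E16.5 control libraries and rose. Of the 6 epithelial markers, all detected in each group, 1 rose and 2 fell at E13.5, and 3 rose and 2 fell at E16.5. They summed to 3325 to 6450 CPM in E16.5 stabilized and 1864 to 2146 CPM in E16.5 control libraries. Mesenchyme markers, 1 of 11 rising and 3 falling at E16.5, summed to 593 to 831 CPM in stabilized and 347 to 675 CPM in control libraries, and their part in the Epcam and Prom1 results was not tested.

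Cited1, a transcriptional co-regulator of luminal and hormone-responsive cells in the pubertal gland, was close to absent. Cited1 (ENSMUSG00000051159, chromosome X, 102247381 to 102252181) had 12, 6, 0 and 16 counts in E13.5 stabilized libraries and 0, 0, 0 and 6 counts in E13.5 controls. At E16.5 it had 0, 6, 2, 2 and 14 counts in stabilized libraries and 0, 2, 6, 0 and 3 counts in controls. The groups overlapped at both stages, and no test was made. Of the 10 relatives and partners of Cited1, 1 rose and 3 fell at E13.5, and 5 rose and 1 fell at E16.5, with medians of -0.13 and 0.45. Tfap2c, a luminal transcription factor, had 62.2 ± 17.0 CPM in E16.5 stabilized and 223 ± 14.4 CPM in E16.5 control libraries and fell. Its relative Tfap2b fell by 0.50 ± 0.14 at E13.5 and rose by 1.00 ± 0.12 at E16.5. Crebbp, the co-activator that Cited proteins bind, rose by 0.50 ± 0.10 at E16.5. Areg, the growth factor through which Cited1 acts in the pubertal mouse gland, had 0 counts in E13.5 stabilized libraries and 2.43 ± 2.19 CPM in E13.5 controls, and fell. Areg rose at E16.5, with 3.33 ± 2.35 CPM in stabilized and 0.414 ± 0.376 CPM in control libraries.

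Set against all genes, 3 of the 7 tested members were called at E13.5, beside 14.9% of all genes tested. Ehf was the 1 that rose (9.58% of all genes) and Kit and Elf3 were the 2 that fell (5.29% of all genes). At E16.5, 5 of 7 were called, beside 41.7% of all genes, with 1 rise (22.2% of all genes) and 4 falls (19.4% of all genes). The difference between the stages' genotype effects was called for 5 of 7, beside 32.2% of all genes. It was higher at E16.5 for 1 (15.6% of all genes) and lower for 4 (16.6% of all genes). The stage effect was called for 5 of 7 in stabilized epithelium, beside 28.0% of all genes, and for 5 of 7 in controls, beside 47.5% of all genes. With so many genes called in general, these counts describe the 8 genes and set them apart from no other list. The members' median log2 fold change was 0.03 at E13.5 and -0.72 at E16.5, against 0.01 and 0.10 over all genes.

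**Figure D5:**
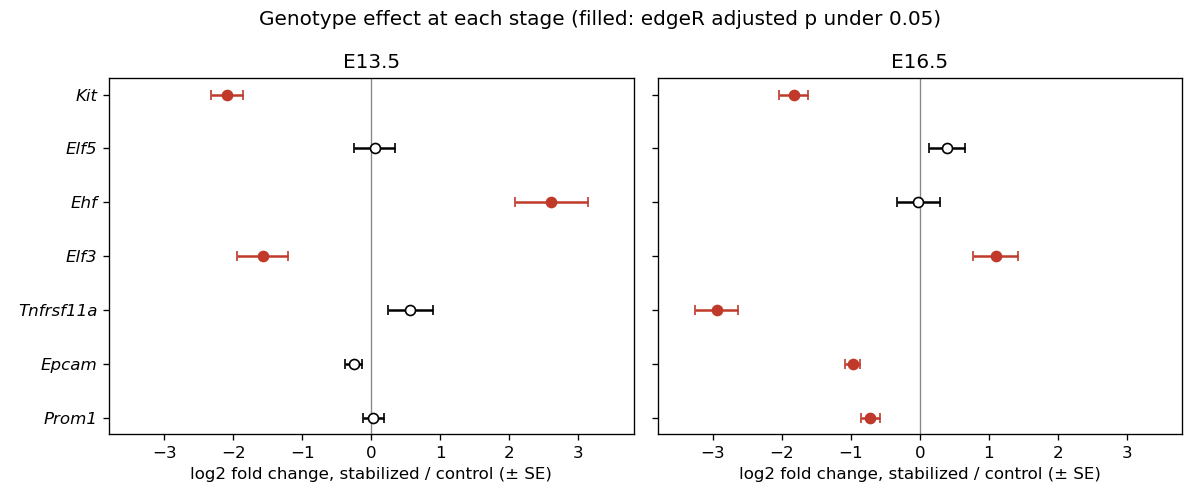
Log2 fold change of stabilized over control (x axis, with SE) for the 7 tested genes at E13.5 (left) and E16.5 (right); filled red points passed the edgeR threshold and open points did not. Kit lies near -2 at both stages, Elf3 lies on opposite sides of 0, and Tnfrsf11a reaches -2.94 at E16.5.

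The wider luminal list was mixed. Of 28 tested genes among 30 others, 5 rose and 7 fell at E13.5, with a median of -0.18, and 5 rose and 9 fell at E16.5, with a median of -0.35. Krt7, a simple-epithelium keratin, had 135 ± 75.0 CPM in E16.5 stabilized and 3.13 ± 0.955 CPM in E16.5 control libraries and rose. Hey1, a Notch target, rose by 0.88 ± 0.25 at E13.5 and fell by 2.19 ± 0.23 at E16.5. Itga2, an integrin subunit, rose by 1.78 ± 0.19 at E16.5. Other keratins of the list, named after their values were seen, went both ways at E16.5. Krt8 had 51.3 ± 28.3 CPM in stabilized and 245 ± 41.6 CPM in control libraries. Krt18 had 55.0 ± 22.0 CPM in stabilized and 200 ± 45.7 CPM in control libraries, and both fell. Krt19 had 30.2 ± 6.68 CPM in stabilized and 4.96 ± 1.80 CPM in control libraries and, like Krt7, rose.

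Of 15 basal genes, 5 rose and 2 fell at E13.5, beside 9.58% higher and 5.29% lower over all genes. At E16.5, 9 rose and 3 fell, beside 22.2% higher and 19.4% lower over all genes. Their medians were 0.38 and 0.89, against 0.01 and 0.10 over all genes. Trp63, the master regulator of stratified epithelium, had 732 ± 41.2 CPM in E16.5 stabilized and 92.1 ± 12.1 CPM in E16.5 control libraries and rose. Krt5, the basal keratin, rose by 1.16 ± 0.24 at E13.5 and 2.48 ± 0.22 at E16.5. Egfr rose by 0.59 ± 0.15 and 2.68 ± 0.15, and the chemokine gene Cxcl14 by 4.38 ± 0.18 at E16.5. These rises stood beside the falls of Kit, Tnfrsf11a, Epcam and Prom1, and how far they share a source with them was not tested.

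Genes with the nearest profile to each member over the 18 libraries were found by the root mean square difference of mean-centred log2 CPM, among 11994 genes. For Kit they were Atp8a1 (0.35), Lgr5 (0.39) and Ctbp2 (0.40), against a median of 1.12 over all genes. Lgr5, a Wnt-pathway receptor, had 73.3 CPM in E13.5 stabilized and 188 CPM in E13.5 control libraries, and 57.2 CPM in E16.5 stabilized and 194 CPM in E16.5 control libraries. For Tnfrsf11a they were Dusp9 (0.48), Kitl (0.53) and Nkain1 (0.55), against a median of 1.30. For Epcam they were Asph (0.11), Mesd (0.15) and Mcrs1 (0.17), and for Prom1 Dgkd (0.16), Mpzl1 (0.18) and Cep78 (0.18). Elf3 was nearest to Il13ra1 (0.41), Fosl2 (0.45) and Atp2b4 (0.45). Elf5 was nearest to H2afj (0.33), Shtn1 (0.34) and Capn5 (0.35). Ehf was nearest to Deptor (1.00), Nrg1 (1.11) and Apod (1.14), against a median of 3.59. The libraries share stage and genotype, so likeness in profile is a description only.

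For the series as a whole, libraries held 26768810 to 36922108 counts. Ctnnb1 itself had 3260 ± 347 CPM in E13.5 stabilized and 2683 ± 333 CPM in E13.5 control libraries. The groups overlapped, and 0.28 ± 0.16 did not pass (edgeR adjusted p = 0.307). Ctnnb1 rose by 0.87 ± 0.15 at E16.5, while gene counts do not show the loss of exon 3. Krt14, whose promoter drives Cre, fell by 1.22 ± 0.25 at E13.5. At E16.5 Krt14 was -0.37 ± 0.22, which did not pass (edgeR adjusted p = 0.189). E13.5 control replicate 3 stood apart by its mitochondrial share (4.18%, against 2.18% to 2.50% in the other E13.5 controls) and E16.5 stabilized replicate 1 by its epidermal markers (23484 CPM, against 2400 to 3233 CPM in the other stabilized libraries). That E16.5 library had the highest Ehf and Elf3 and the lowest Tnfrsf11a, Epcam and Prom1 of its group. Without these 2 libraries, an alternative chosen after seeing the data, the members called were 3 at E13.5 and 5 at E16.5, as before, with Epcam at -0.92, Prom1 at -0.62, Tnfrsf11a at -2.79, Elf3 at 0.94 and Kit at -1.76 at E16.5. All 12 measured hair shaft markers rose in E16.5 stabilized epithelium, and their sum was 4897 to 11773 CPM, against 0.204 to 2.59 CPM in controls. The part of hair and epidermal cells in the members' results was not tested.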

How the data were processed

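The files hold deposited estimated counts per Ensembl gene, already whole numbers, and a second deposited table of signal, in which counts are divided by factors that vary by gene and library. Those factors served only as offsets in 1 alternative. The submitters' processing notes name Trimmomatic 0.39, Salmon 0.99.0 and DESeq2, with the build mm10, and do not name a strand setting. In edgeR 4.0.16 (R 4.3.3), filterByExpr (minimum count 10) kept 17269 genes. A robust quasi-likelihood model with TMM factors and a mean for each group used all 18 libraries, with Benjamini-Hochberg adjustment. It was tested on 10 simulated sets of 18 libraries (16746 to 16798 genes each). In these, 100 genes were changed 2-fold and 100 changed 4-fold in E13.5 stabilized libraries only. It recovered 33% to 48% of the former and 66% to 81% of the latter. The changed genes were drawn only from those above a minimum mean count, so the rates do not cover genes of the lowest counts. Far fewer genes changed there than were called in these data, so the rates need not hold here. Precision is limited by depth for genes of few counts. Exon lengths came from GENCODE M21, and promoters from RefSeq.

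The members and gene lists were chosen with earlier results of these data known. Named genes were the 8 members, Ctnnb1, Krt14, Kitl, Tnfsf11, Tnfrsf11b and the 3 nearest profiles per member. A rule also picked up to 4 genes per list by smallest adjusted p over the genotype effects (1 for marker lists). Of the picks from marker lists, only Trp63, Sox10 and Cma1 are given here. Krt8, Krt18, Krt19, Cdh1, Ednrb, Hdc and Csf1r were named after their values were seen. The 5 mast cell proteases and the 6 pigment genes were set apart from their lists in the same way. Alternatives were DESeq2 1.42.0, RLE factors, offsets, filters, a replicate block, stage or genotype subsets and leaving out libraries.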

Additional observations from a re-analysis of the deposited data

Results flagged for a closer look

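The genotype effect differed between the stages for 5 members (E16.5 minus E13.5 in the edgeR interaction term). It was higher at E16.5 by 2.68 on the log2 scale for Elf3. It was lower at E16.5 for Ehf (-2.63), Tnfrsf11a (-3.50), Epcam (-0.71) and Prom1 (-0.74). The term passed for 32.2% of all genes, so this is common in these data. For Prom1 it did not pass with the deposited factors as offsets.

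In Cited1, 1 E13.5 control library stood apart from the other 3, with 0.194 CPM (6 counts) where the others had 0 counts. Of 32 groups of member values examined, 1 stood out in this way. The rule is set to flag about 1 in 20 by chance. That rate does not hold here, since any count stands apart when the other libraries are at 0.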

How the results depend on the processing

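For genotype at E13.5, 2569 genes were called, and 1707 with the deposited factors as offsets (5487 at E16.5, against 7194) and 1651 with E13.5 libraries alone. The other counts of calls stayed within 1.5 times under the alternatives tried. Leaving out 1 library gave 1920 to 3035 calls for genotype at E13.5, 6434 to 7771 at E16.5, 4942 to 6094 for the difference between stages, 3960 to 5479 for stage in stabilized epithelium and 7407 to 8362 in controls. The members called were 3, 5 and 5 for the first 3 comparisons without any 1 library, 5 to 6 for stage in stabilized epithelium and 4 to 5 in controls, where Elf3 was lost without E13.5 control replicate 1 (edgeR adjusted p = 0.0527).

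With offsets the members called were 2 at E13.5 and 4 in each other comparison. Values that changed sign had not been called. With offsets these were Elf5 (-0.32), Tnfrsf11a (-0.39) and Prom1 (-0.38) at E13.5, Ehf at E16.5 (0.10), the stage difference for Kit (-0.079), and stage for Kit in stabilized epithelium (-0.47) and Prom1 in controls (-0.61). Ehf at E16.5 was 0.018 with DESeq2 and 0.018 with RLE factors. Without 1 library, Elf5 ran from -0.11 to 0.19 and Prom1 from -0.084 to 0.11 at E13.5, Ehf from -0.12 to 0.078 at E16.5, stage for Kit in stabilized epithelium from -0.040 to 0.35 and for Prom1 in controls from -0.026 to 0.10. Stage for Epcam in stabilized epithelium passed with DESeq2 (-0.28, adjusted p = 0.0496), a minimum of 50 counts in 4 libraries (-0.30, edgeR adjusted p = 0.0439), without E13.5 control replicate 3 (-0.29, edgeR adjusted p = 0.0441) and without E16.5 stabilized replicate 2 (-0.34, edgeR adjusted p = 0.0427). The cause was not tested. The median over all genes at E16.5 was 0.10 (0.19 with DESeq2).

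Same-numbered libraries showed no clear joint deviation (correlations -0.09 to 0.17 at E13.5 and -0.10 to 0.13 at E16.5). With so few libraries per group, this cannot exclude that some of them share a litter. With a replicate block 2260 genes were called at E13.5 and 6756 at E16.5, and no member's call changed. Genes of few counts, such as Ehf at E13.5, Tnfsf11 and Cited1, are limited by depth.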
